A study of Homo sapiens with 12 samples.

Results

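The response of p21-targeted THP-1 cells to a KLF4 virus was read from 4 of the 12 expression arrays of a series on 3 CRISPR targets. The 4 arrays were taken by their labels, as all arrays of the lines p21-2 and p21-3, and the response was the value with KLF4 virus minus the value with the empty control virus (ECV) in the same line. THP-1 is a human line derived from a monocytic leukaemia. In the 4 groups not described here in their own right, the CRISPR construct was non-targeting (lines NT-2 and NT-3) or aimed at miR-150 (likewise 2 lines), again with both viruses. All cells of the series were thus CRISPR-selected and lentivirus-infected, the controls included. RNA was isolated 5 days after lentiviral infection, when 17 days had passed since CRISPR selection. Every group therefore consisted of 2 arrays, 1 from each line of its target. The labels do not say whether the lines of a target are clones or pools, or whether they began as separate cultures, so p-values measure the spread between lines, which may be partly technical.

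KLF4 is a zinc finger transcription factor of the Krüppel-like family, which binds GC-rich and CACCC-type sequence, and it is known for promoting the maturation of monocytes from myeloid progenitors. Its best known targets include CDKN1A, the gene of p21, which inhibits cyclin-dependent kinases and holds cells in G1. The p21 lines therefore show the KLF4 response in cells in which this inhibitor was the CRISPR target.

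The values are log2 expression levels from Illumina bead arrays as the authors deposited them, and a difference of 1 is a 2-fold difference. Changes are on this log2 scale unless they are called a fold. A probe was called above background over a level of 7.291, estimated from the values themselves, and 11313 genes had a probe above it on at least 2 of the 12 arrays. On the p21 arrays between 16850 and 16868 of 47323 probes passed that level. Across genes the ECV arrays of p21-2 and p21-3 correlated with r = 0.9961 and their KLF4 arrays with r = 0.9962. The monocytic identity of the line was visible in LYZ (lysozyme), at 14.13 to 14.51 on the 4 arrays, in SPI1, the gene of the myeloid factor PU.1, at 10.18 to 10.72, and in the leukaemia-associated homeobox gene MEIS1, at 10.07 to 10.48. Probes of MPO, FLT3 and PTPRC lay near or under the background level, between 7.03 and 7.46. The defining T cell genes CD3D, CD3E and CD3G, the B cell gene MS4A1, the erythroid factor GATA1, the epithelial gene EPCAM and the fibroblast collagen COL1A1 were all between 6.96 and 7.37, near or under that level.

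CDKN1A was read first, as the target of the CRISPR construct. Its level was 9.11 in p21-2 and 8.88 in p21-3 with ECV and 11.08 and 11.37 with KLF4 virus. The KLF4 arrays were thus higher in both lines, and the groups did not overlap. The rise was 4.69-fold (log2 change 2.23, SE 0.202, adjusted p = 4.91e-06; limma, Benjamini-Hochberg adjusted over 11313 genes), with log2 changes of 1.97 in p21-2 and 2.49 in p21-3. A further CDKN1A probe stayed under the background level on all 4 arrays. An edited gene can go on making mRNA, so these levels do not test the edit. For KLF4 itself the pair of probes was dim. The probe used for the gene read 7.62 and 7.63 with ECV and 7.87 and 7.64 with KLF4 virus, and the other read 7.78 and 7.82 with ECV and 7.64 and 7.43 with KLF4 virus. Neither probe therefore showed the delivered gene, and the sources used here do not state which stretch of KLF4 was delivered. The promoter window of CDKN1A is shown because KLF4 is known to act on this gene. It lies at chr6:36678464-36678763 on the plus strand of GRCh38.p14 (RefSeq), from 250 bases before to 50 bases after the listed start, with GGGCGG in capitals. It holds 4 matches to GGGCGG, of which 2 overlap, and none to CACCC on either strand.
CDKN1A: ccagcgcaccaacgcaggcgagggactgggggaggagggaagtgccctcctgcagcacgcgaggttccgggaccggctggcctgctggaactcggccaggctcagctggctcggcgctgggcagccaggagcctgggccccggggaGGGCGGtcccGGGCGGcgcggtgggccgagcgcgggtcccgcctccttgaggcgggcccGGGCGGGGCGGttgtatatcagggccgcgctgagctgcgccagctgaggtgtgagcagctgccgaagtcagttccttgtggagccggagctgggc

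With KLF4 virus, 1066 of the 11313 genes rose in the p21 lines, 9.42% of those tested, and 1217 fell, 10.8%, at an adjusted p under 0.05 (limma). Large changes were more often rises: 143 genes at least doubled and 27 fell at least 2-fold. The median change over all genes was -0.01, and the median SE of a gene was 0.102. All 2283 called genes moved in the same direction in both lines, which a call on the mean of the 2 changes favours. Over all genes the signs of the 2 lines matched in 8302, or 73.38%. The changes of the lines correlated across genes with Pearson r of 0.8518 and Spearman rho of 0.7081, a description only, since genes are not independent replicates. A rise of at least 1 on the log2 scale was seen in 146 genes in p21-2 and in 166 in p21-3, and 127 genes were in both. A fall of that size was seen in 29 and 32 genes, and 23 were in both. Among the called genes, 54 risers lay at or under the background level on both ECV arrays and 45 fallers lay there on both KLF4 arrays, so their fold changes are too small. In fits without 1 p21 array, which leave its partner alone in its group, between 595 and 692 genes rose and between 500 and 709 fell.

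**Figure D1:**
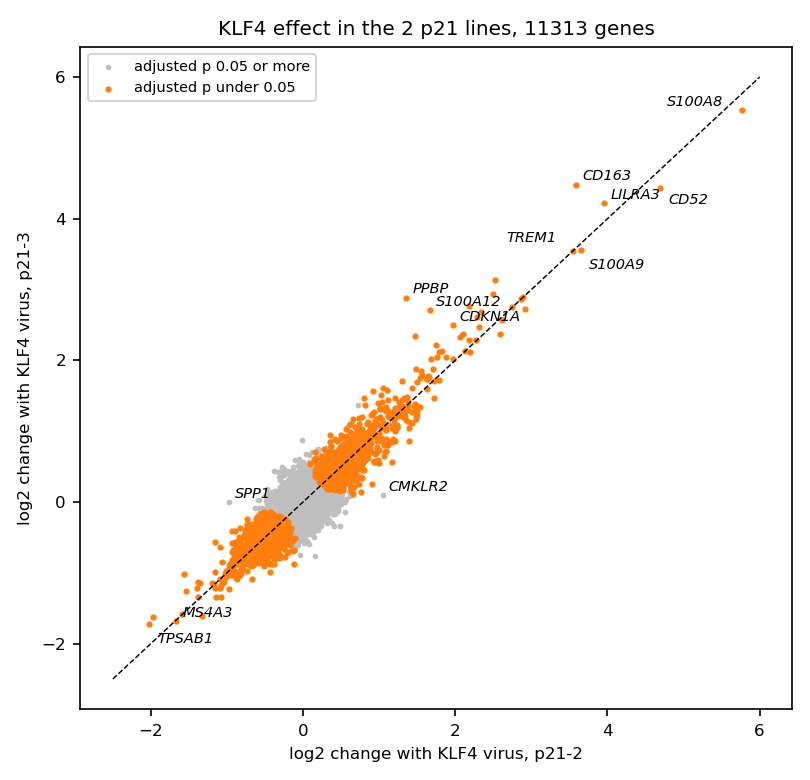
Log2 change with KLF4 virus of each of 11313 genes in line p21-2 (horizontal) against line p21-3 (vertical), 1 point per gene, orange where the adjusted p was under 0.05. The dashed line marks equal change; S100A8, at 5.76 and 5.53, lies farthest out, and PPBP, at 1.35 and 2.89, lies well off the line.

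The largest rise was that of S100A8, whose product pairs with S100A9 to form calprotectin, a calcium-binding complex of monocytes and neutrophils. S100A8 read 8.15 in p21-2 and 8.76 in p21-3 with ECV and 13.92 and 14.30 with KLF4 virus, which is 50.2-fold higher (log2 change 5.65, SE 0.253, adjusted p = 5.15e-09). S100A9 read 10.60 and 10.88 with ECV and 14.26 and 14.44 with KLF4 virus, a 12.2-fold rise (SE of the log2 change 0.155, adjusted p = 4.29e-09). In both genes the KLF4 arrays lay far above the ECV arrays in both lines. Of 10 genes of the S100 family on the array, 9 were tested, 8 rose and 0 fell. The rises were 88.9% of those tested, against 9.42% of all genes, and the median change was 1.15 against -0.01 over all genes. S100P, S100A10, S100A11 and S100A6 rose by 1.36, 1.15, 0.66 and 0.66 on the log2 scale. S100A12, a further neutrophil and monocyte member, was under the background level in both lines with ECV and rose at least 3.95-fold. That bound sets the KLF4 mean against the background level, as do the other bounds given here. Its call ended without p21-2 with ECV (adjusted p = 0.0518), p21-3 with ECV (0.065) or p21-3 with KLF4 (0.116). Between 6 and 7 members rose in fits without 1 p21 array.

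CD52, a small glycoprotein on the surface of lymphocytes and mature monocytes, rose 23.7-fold and had the smallest adjusted p of all genes (log2 change 4.57, SE 0.103, adjusted p = 3.47e-12). It read 8.89 in p21-2 and 9.18 in p21-3 with ECV and 13.59 and 13.62 with KLF4 virus. Beside it stand the lymphoid markers as a whole, of which 8 of 21 on the array were above background on any p21 array. Their summed unlogged level was 11530 to 11710 with ECV and 35018 to 35636 with KLF4 virus. That sum includes CD52 itself and the bright NKG7 (12.93 and 12.89 with ECV, 14.13 and 14.17 with KLF4 virus), so it is no separate evidence. Of 9 tested, 4 rose (44.4%, against 9.42% of all genes) and 0 fell. The risers were CD52, the adhesion receptor CD2 (2.28), and the cytotoxic granule genes NKG7 (1.24) and GZMA (0.87). The call of GZMA held in none of the 4 fits without 1 p21 array (adjusted p from 0.061 to 0.127) and was also lost with normexp background correction (0.0657), while the defining T cell genes CD3D, CD3E and CD3G stayed between 7.04 and 7.22 on all 4 arrays. The part of these markers in the rise of CD52 was not tested, and in bulk RNA more cells of a type and more RNA per cell cannot be told apart.

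The promoter windows of S100A8 and CD52, the 2 largest rises, are shown with CACCC, the core of the motif KLF proteins bind, in capitals on either strand. The S100A8 window is the first of 3 listed starts, at chr1:153391139-153391438 on the minus strand, and holds 1 match, as does the second, while the third holds 0. The CD52 window, at chr1:26317708-26318007 on the plus strand, holds 3.
S100A8: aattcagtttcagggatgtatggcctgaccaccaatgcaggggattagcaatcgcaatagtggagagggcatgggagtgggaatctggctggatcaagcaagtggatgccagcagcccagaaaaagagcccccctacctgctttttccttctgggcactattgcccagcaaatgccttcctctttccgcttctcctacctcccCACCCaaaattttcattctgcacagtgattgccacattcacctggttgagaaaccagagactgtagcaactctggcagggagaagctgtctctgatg
CD52: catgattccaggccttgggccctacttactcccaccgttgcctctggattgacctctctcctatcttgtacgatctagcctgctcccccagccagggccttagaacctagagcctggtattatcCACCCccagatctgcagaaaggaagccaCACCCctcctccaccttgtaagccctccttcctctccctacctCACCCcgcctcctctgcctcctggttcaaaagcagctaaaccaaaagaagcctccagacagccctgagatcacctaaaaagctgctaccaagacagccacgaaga

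Among the next largest rises were those of LILRA3, CD163 and TREM1. TREM1, an activating receptor that amplifies inflammatory signals, read 8.07 in p21-2 and 8.07 in p21-3 with ECV and 11.62 and 11.61 with KLF4 virus, and the lines gave almost the same rise (3.55 and 3.55; 11.7-fold, adjusted p = 3.42e-09). LILRA3, a secreted member of the leukocyte immunoglobulin-like receptors, read 7.28 and 7.36 with ECV and 11.23 and 11.59 with KLF4 virus and rose by 4.09 (SE 0.285). The scavenger receptor CD163, which takes up haemoglobin complexes, read 7.30 and 7.19 with ECV and 10.89 and 11.67 with KLF4 virus and rose by 4.03 (SE 0.446). For both, 1 of the ECV arrays was under the background level, so the folds may be too small. Their other kept probes also rose, by 2.27 for LILRA3 and by 2.76 and 4.03 for CD163.

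Of 24 genes of the LILR, TREM and adaptor list on the array, 19 were tested, 10 rose and 0 fell, with a median of 0.61. The rises were 52.6% of those tested, against 9.42% of all genes. Next to TREM1 and LILRA3 these included LILRA5 (1.90), the inhibitory LILRB2 (1.68), and the signalling adaptors FCER1G (1.39) and TYROBP (1.33), which carry the signals of such receptors into the cell. In fits without 1 p21 array 9 rose. Of 15 tested Fc and complement receptors and regulators, 7 rose and 1 fell (46.7% and 6.67%, against 9.42% and 10.8% of all genes). CD55, which protects cells from complement, read 8.58 and 8.63 with ECV and 11.49 and 11.35 with KLF4 virus and rose by 2.81 (SE 0.152), and the anaphylatoxin receptor C5AR1 rose by 2.46 (SE 0.286). CD59, another shield against complement, fell by 0.72 (SE 0.1, adjusted p = 0.0002). The rises numbered 4 to 5 in fits without 1 p21 array.

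Of 22 tested integrin and adhesion genes, 9 rose and 1 fell (40.9% and 4.55%, against 9.42% and 10.8% of all genes). The rises numbered 8 to 9 in fits without 1 p21 array. ITGAM, the CD11b chain of the Mac-1 integrin and a marker of maturing myeloid cells, read 7.98 in p21-2 and 8.14 in p21-3 with ECV and 10.84 and 11.01 with KLF4 virus and rose 7.29-fold (adjusted p = 4.29e-09). ITGB7 read 7.60 and 7.59 with ECV and 10.21 and 10.16 with KLF4 virus and rose 6.05-fold. ITGAX, the CD11c chain, rose by 1.60 and PECAM1 by 0.80. ITGA4, a chain of the VLA-4 integrin that binds marrow stroma, was the member that fell, by 0.55, a call that ended without p21-2 with ECV (adjusted p = 0.0597) or p21-3 with KLF4 (0.0528).

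Sensors of bacterial products were read next. LY96, the MD-2 protein that binds lipopolysaccharide for TLR4, read 9.27 in p21-2 and 9.38 in p21-3 with ECV and 11.46 and 11.67 with KLF4 virus and rose 4.72-fold. In the CD14 and Toll-like receptor list 19 of 24 members were tested, 9 rose and 1 fell, with a median of 0.33. The shares were 47.4% and 5.26%, against 9.42% and 10.8% of all genes. The risers included the cytosolic sensor NOD2 (0.94) and the adaptors TICAM1 (0.67) and PYCARD (0.52). The rises numbered 4 to 5 and the falls 0 in fits without 1 p21 array. CD14 itself, the classical monocyte marker, was dim, at 7.33 and 7.27 with ECV and 7.63 and 8.03 with KLF4 virus, and did not pass the test (adjusted p = 0.242). The same change passed with the p21 arrays alone (0.000308), with array weights (0.0356) and without either non-targeting KLF4 array (0.00148). Among chemoattractant receptors 5 of 15 tested rose and 2 fell (33.3% and 13.3%, against 9.42% and 10.8% of all genes). CXCR4, the marrow-retention receptor for CXCL12, was lower by 0.68 (adjusted p = 0.00242, SE 0.132), and by 0.26 in a second bright probe. The formyl peptide receptors FPR1 and FPR2 were higher by 1.75 and 1.20. The rises numbered 4 and the falls 1 in fits without 1 p21 array. The costimulatory ligand CD86 read 7.89 and 8.13 with ECV and 10.48 and 10.50 with KLF4 virus and rose 5.57-fold, whereas CD83, a marker of mature dendritic cells, fell by 0.59 (SE 0.0862, adjusted p = 0.000316).

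The remaining genes among the 20 largest rises were NFE2, a factor of myeloid and megakaryocytic cells (2.89), the aldo-keto reductases AKR1C2 and AKR1C4 (2.83 and 2.39), the lysosomal thiol reductase IFI30 (2.71), the membrane protein EMP1 (2.51) and the water and glycerol channel AQP9 (2.48), together with the secreted lectin ITLN1. The call of AQP9 ended without p21-3 with KLF4 (log2 change 2.08, adjusted p = 0.067). ITLN1 read 7.13 and 6.94 with ECV and 9.87 and 9.69 with KLF4 virus; it was at background in both lines with ECV and rose at least 5.62-fold. AKR1C2 and AKR1C4 are close relatives, and probes of one may take up transcripts of another. Each rise rests on 1 kept probe, and the other probes of both genes stayed under the background level on all 4 arrays.

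**Figure D2:**
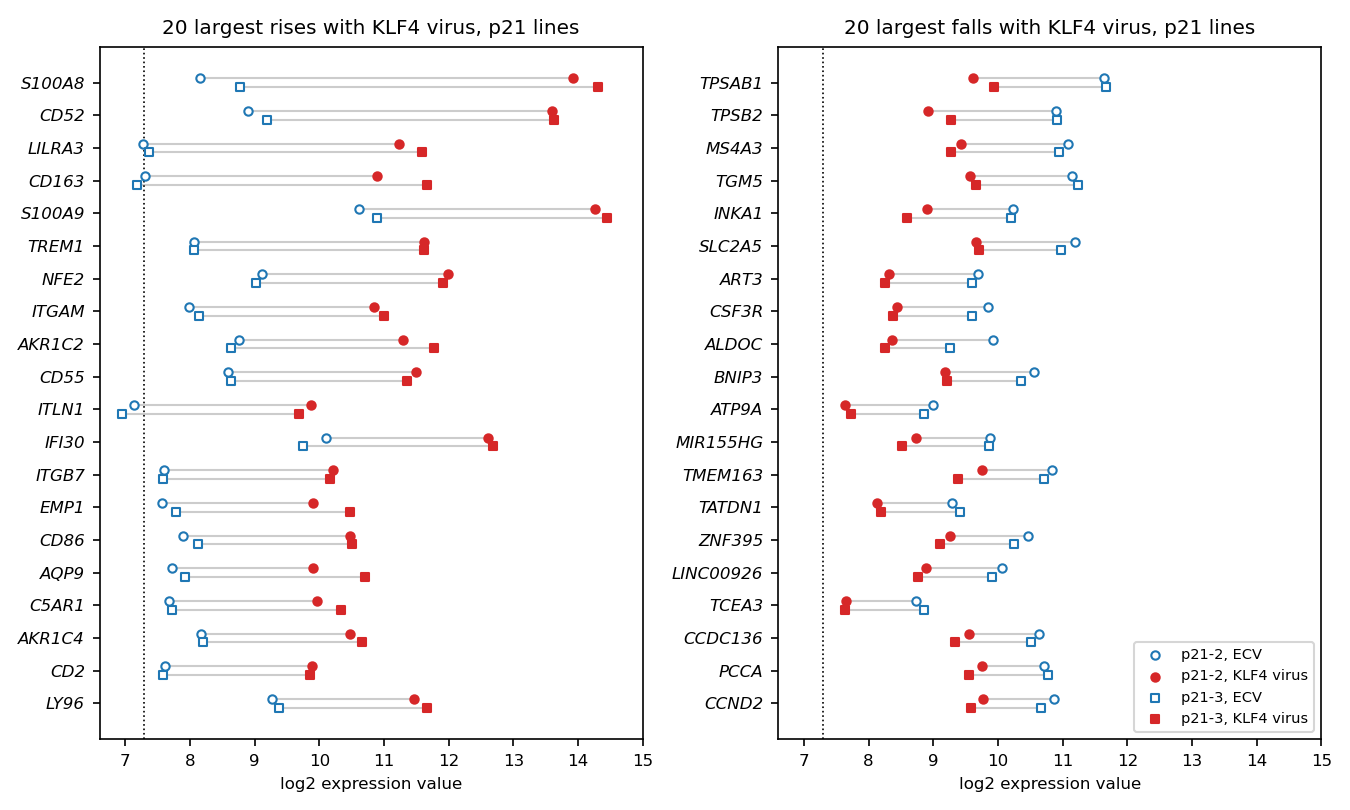
Log2 expression values on the 4 p21 arrays for the 20 largest rises (left) and the 20 largest falls (right), with open blue symbols for ECV and filled red symbols for KLF4 virus, circles for p21-2 and squares for p21-3; the dotted line is the background level of 7.291. The 40 genes were taken among called genes that moved in the same direction in both lines, and the falls span a narrower range than the rises.

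The falls were smaller and led by granule and progenitor genes. The tryptases TPSAB1 and TPSB2, proteases of mast cell granules, are near-identical copies that probes may not separate. TPSAB1 read 11.64 in p21-2 and 11.66 in p21-3 with ECV and 9.62 and 9.94 with KLF4 virus and fell by 1.87 (SE 0.17, adjusted p = 4.91e-06), and TPSB2 fell by 1.80. Of 9 mast cell and basophil markers on the array, 3 were above background on any p21 array. The summed level of the 9 went from between 6075 and 6130 with ECV to between 2209 and 2575 with KLF4 virus. That sum includes both tryptases and so repeats their falls. Probes of the other defining mast cell genes CPA3, FCER1A and HDC stayed between 6.94 and 7.22, and the part of such cells in the result was not tested. MS4A3, found on progenitors committed to granulocytes and monocytes, read 11.09 in p21-2 and 10.95 in p21-3 with ECV and 9.42 and 9.27 with KLF4 virus. It fell 3.19-fold (log2 change -1.67, SE 0.119, adjusted p = 5.69e-07), and the falls in the 2 lines, -1.67 and -1.68, differed by less than the SE. Its promoter window, at chr11:60056415-60056714 on the plus strand, is shown as that of the largest fall outside the tryptases. It holds no CACCC on either strand, which 62.5% of the windows of genes that fell do hold, against 63.5% of all windows.
MS4A3: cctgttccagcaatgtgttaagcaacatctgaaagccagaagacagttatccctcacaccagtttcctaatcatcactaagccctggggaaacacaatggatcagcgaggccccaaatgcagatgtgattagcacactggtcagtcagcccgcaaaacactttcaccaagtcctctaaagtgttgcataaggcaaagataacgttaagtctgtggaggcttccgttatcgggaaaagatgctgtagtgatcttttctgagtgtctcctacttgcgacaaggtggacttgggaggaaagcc

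CSF3R, the receptor of granulocyte colony-stimulating factor, read 9.84 and 9.60 with ECV and 8.44 and 8.38 with KLF4 virus and fell by 1.31 (SE 0.0972, adjusted p = 9.24e-07). It was the single member to fall among 17 tested myeloid growth factor receptors, of which 3 rose, such as IL10RA (1.11) and IFNGR1 (0.60). That is 5.88% lower and 17.6% higher, against 10.8% and 9.42% of all genes. MIR155HG, the host transcript of miR-155, read 9.88 and 9.86 with ECV and 8.73 and 8.52 with KLF4 virus and fell by 1.24 (SE 0.158). The fructose transporter SLC2A5 fell by 1.40, the glycolytic enzyme ALDOC by 1.29 and BNIP3, a mitophagy receptor of the hypoxia response, by 1.26. TGM5, a transglutaminase of skin, fell by 1.58 in the probe used and by 1.496 and 0.31 in others, while a dim further probe changed by 0.09. The other largest falls were those of INKA1, ART3, ATP9A, TMEM163, TATDN1, ZNF395, LINC00926, TCEA3, CCDC136, PCCA and CCND2, with log2 changes from -1.47 for INKA1 to -1.09 for CCND2.

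The granule list as a whole went both ways, with 2 of 15 tested members higher and 3 lower. These are 13.3% and 20%, against 9.42% and 10.8% of all genes. ELANE, neutrophil elastase, rose by 1.08 (SE 0.182) while PRTN3, the neighbouring proteinase, fell by 0.70 (SE 0.0887). ELANE read 10.93 and 10.57 with ECV and 11.84 and 11.82 with KLF4 virus, and PRTN3 read 8.70 and 8.80 with ECV and 8.11 and 7.98 with KLF4 virus. Both lines thus moved the same way in each gene, and the groups did not overlap.

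Cell cycle genes were followed because p21 acts there. Of 11 cyclin-dependent kinase inhibitors and RB family members, 10 were tested, 2 rose and 1 fell. These are 20% and 10% of those tested, against 9.42% and 10.8% of all genes. Next to CDKN1A, CDKN2D, the gene of p19INK4d, rose by 1.13 (SE 0.174, adjusted p = 0.000469) and CDKN2A fell by 0.45, a call that held in none of the 4 fits without 1 p21 array (adjusted p from 0.0639 to 0.119) nor with normexp background correction (0.0552). Of 17 tested G1 cyclins, kinases and E2F factors, 2 rose (11.8%) and 4 fell (23.5%). The D cyclins moved apart, with CCND2 at 10.86 and 10.67 with ECV and 9.77 and 9.58 with KLF4 virus and CCND3 at 12.95 and 12.95 with ECV and 13.88 and 14.01 with KLF4 virus. CCND2 thus fell by 1.09 (SE 0.169) and CCND3 rose by 0.99 (SE 0.0947). Their partner CDK6 fell by 0.94 (SE 0.111), and CDK4, at -0.41, did not pass the test (adjusted p = 0.0853). CDK4 passed with the line as a block (0.0417), with the p21 arrays alone (0.00135), with array weights (0.0108) and without either non-targeting KLF4 array (0.0033). E2F2, one of the activating E2F factors, read 11.69 in p21-2 and 11.76 in p21-3 with ECV and 13.07 and 13.13 with KLF4 virus and rose 2.59-fold (adjusted p = 4.96e-07).

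Of 39 tested S phase and replication genes, 10 fell (25.6%, against 10.8% of all genes) and 0 rose, and the median was -0.18. The helicase subunit MCM5 fell by 0.52 (SE 0.103, adjusted p = 0.0026). The count was lower in other fits: 1 to 5 genes fell in fits without 1 p21 array, 6 with cyclic loess and 4 with normexp background correction. Of 38 tested G2 and mitosis genes, 5 rose (13.2%, against 9.42% of all genes) and 0 fell, with a median of 0.11. They were CDC25B, the phosphatase that starts mitosis (0.89, SE 0.1), ASPM (0.42), NEK2 (0.62), KIF23 (0.50) and UBE2C (0.34). In fits without 1 p21 array 2 to 5 rose: NEK2 was lost without p21-2 with ECV (adjusted p = 0.0738), KIF23 without p21-2 with ECV (0.082) or KLF4 (0.0947), and UBE2C without p21-2 with ECV (0.197) or KLF4 (0.0873) or p21-3 with KLF4 (0.139). KIF23 and UBE2C also lost their calls with the mean over probes (0.0502 and 0.209), and UBE2C with normexp (0.0854). Of 18 tested p53 targets, among which CDKN1A was not counted, 2 rose and 3 fell, and the median was -0.01. These are 11.1% and 16.7%, against 9.42% and 10.8% of all genes. In fits without 1 p21 array 0 to 1 of them rose and 1 to 3 fell, and 0 rose with normexp. In the same design with other constructs, the S phase list had 23 genes lower in non-targeting lines, where 16% of all genes fell, and 6 in miR-150 lines, where 8.9% did, against 10.8% in p21 lines. The G2 and mitosis list there had 6 higher and 4 lower, and 3 higher and 3 lower, with 12.8% and 8.71% of all genes higher. Counts of calls are no test of a difference between targets, and the direct tests with all arrays called 0 genes.

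**Figure D3:**
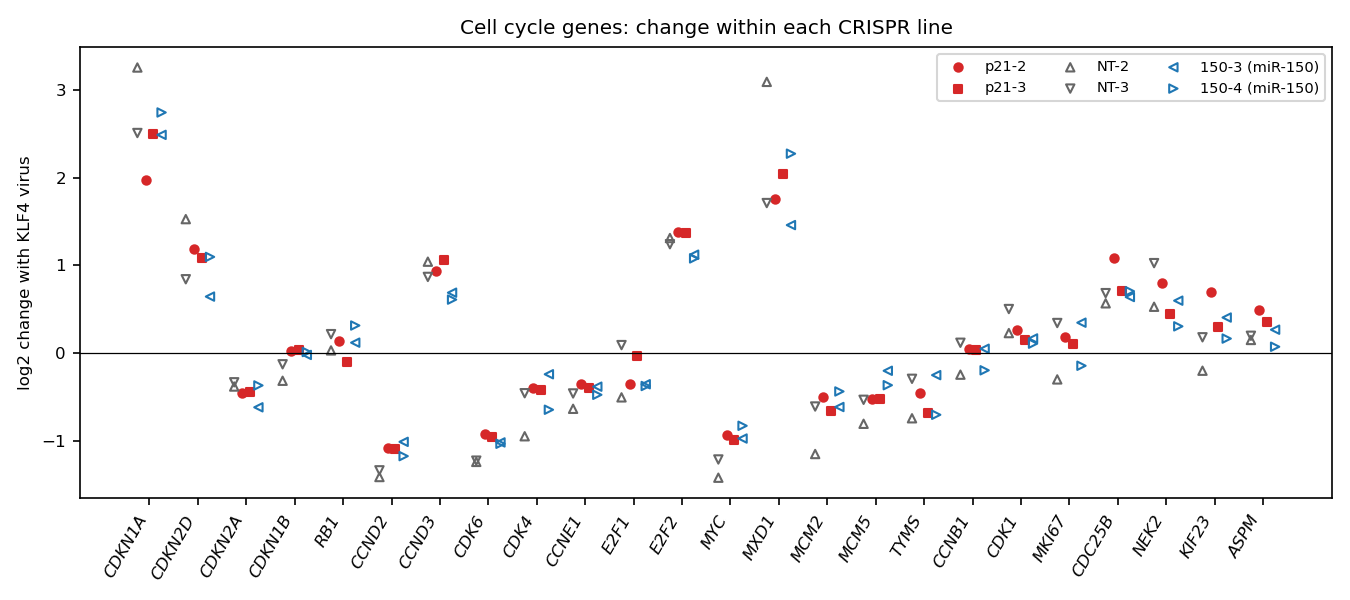
Log2 change with KLF4 virus (vertical) of selected cell cycle and MYC network genes in each of the 6 CRISPR lines, with filled red symbols for p21-2 and p21-3, open grey for NT-2 and NT-3, and open blue for the miR-150 lines. CDKN1A rose by 1.97 and 2.49 in the p21 lines and by 2.49 to 3.25 in the other lines, and CCND2, CDK6 and MYC are below 0 in all 6.

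MYC, which drives growth and ribosome production, read 11.69 in p21-2 and 11.64 in p21-3 with ECV and 10.75 and 10.65 with KLF4 virus and fell by 0.96 (SE 0.0949, adjusted p = 1.07e-05), and its second probe fell by 1.26. MXD1, which competes with MYC for its partner MAX, read 7.71 and 7.94 with ECV and 9.47 and 9.98 with KLF4 virus and rose 3.73-fold (SE of the log2 change 0.352). Of 31 tested MYC network and ribosome biogenesis genes, 13 fell and 2 rose (41.9% and 6.45%, against 10.8% and 9.42% of all genes). The median of -0.34 was the lowest of all lists with at least 5 tested genes. The nucleolar proteins NOP16, NOP56 and FBL fell by 0.81, 0.63 and 0.72, the RNA polymerase I and III subunit POLR1C by 0.64 and the polyamine enzyme ODC1 by 0.64. Between 8 and 10 fell in fits without 1 p21 array. Of 22 tested ribosomal proteins 3 fell, 13.6% against 10.8% of all genes, and 0 rose, with a median of -0.11. Between 1 and 3 fell in fits without 1 p21 array.

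Of 25 tested myeloid transcription factors, 9 rose and 5 fell (36% and 20%, against 9.42% and 10.8% of all genes). NFE2 read 9.11 in p21-2 and 9.02 in p21-3 with ECV and 11.995 and 11.91 with KLF4 virus and rose 7.4-fold (adjusted p = 3.57e-09), the largest change of the list. CEBPB, which drives monocyte maturation under stress and cytokines, read 12.30 and 12.09 with ECV and 13.60 and 13.45 with KLF4 virus and rose by 1.33 (SE 0.104). The retinoic acid receptor RARA rose by 0.67, BHLHE40 by 0.79 and ID2 by 0.63. IRF8, a factor of the monocyte and dendritic lineage, read 10.25 and 10.03 with ECV and 9.47 and 9.37 with KLF4 virus and fell by 0.72 (SE 0.115, adjusted p = 0.000604). The rises numbered 5 to 8 and the falls 2 in fits without 1 p21 array. MYB, a factor of immature blood cells, read 13.18 and 12.996 with ECV and 12.69 and 12.72 with KLF4 virus. Its fall of 0.38 (adjusted p = 0.0483) did not pass the test in any of the 4 fits without 1 p21 array (0.0729 to 0.284), with cyclic loess (0.0563), normexp (0.135) or no filter on dim probes (0.0611), nor in the fits without 1 non-targeting ECV array (0.0641) or 1 miR-150 array (0.0542 to 0.0679). LMO2, a bridging factor of blood stem cells, rose by 0.75 (SE 0.133).

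Of 19 KLF and SP family members on the array 13 were tested, 5 rose and 1 fell. The shares were 38.5% and 7.69%, against 9.42% and 10.8% of all genes. In fits without 1 p21 array 2 to 3 rose and 0 to 1 fell. KLF9 read 8.71 and 8.56 with ECV and 9.80 and 9.90 with KLF4 virus and rose by 1.21 (SE 0.115), and KLF13 read 10.31 and 10.36 with ECV and 11.30 and 11.33 with KLF4 virus and rose by 0.98 (SE 0.0978). KLF10 and KLF6 rose by 0.42 and 0.48, KLF3, under the background level in both lines with ECV, rose at least 1.11-fold, and SP4 fell by 0.34, calls that were lost in at least 3 of the 4 fits without 1 p21 array. The KLF10 call was also lost with the mean over its probes (log2 change 0.22, adjusted p = 0.079), and the KLF6 and SP4 calls with normexp (0.067 and 0.0544). KLF2, the nearest relative of KLF4 in monocytes, had a change of 0.30 and did not pass the test (adjusted p = 0.445), although it did with the p21 arrays alone (0.0143) and without either non-targeting KLF4 array (0.0178).

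Of 33 tested lysosomal genes 14 rose (42.4%, against 9.42% of all genes), 0 fell and 19 did not pass the test. The median was 0.24. IFI30, which reduces disulfides of internalised antigens, read 10.11 in p21-2 and 9.75 in p21-3 with ECV and 12.60 and 12.68 with KLF4 virus and rose 6.56-fold. The cathepsins CTSH and CTSD rose by 1.19 and 1.03, the sphingolipid activator precursor PSAP by 0.93, GRN by 0.71 and the proton pump subunit ATP6V0D1 by 0.73. Between 9 and 12 rose in fits without 1 p21 array. Of 12 tested NRF2 targets and aldo-keto reductases 6 rose (50%, against 9.42% of all genes) and 0 fell. The rises numbered 4 to 5 in fits without 1 p21 array. AKR1C2 read 8.76 and 8.63 with ECV and 11.29 and 11.77 with KLF4 virus, the quinone reductase NQO1 rose by 1.01 (SE 0.114) and NFE2L2, the gene of NRF2 itself, by 0.72. Of 18 tested genes of sterol and fatty acid synthesis 5 fell (27.8%, against 10.8% of all genes) and 0 rose. The rate-limiting fatty acid enzyme ACACA was at -0.71, FASN at -0.64 and the sterol cyclase LSS at -0.79 (-0.11 and -0.05 in its dim other probes). The falls numbered 3 to 6 in fits without 1 p21 array.

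Glucose genes moved apart. SLC2A3, a high-affinity glucose transporter, read 11.20 in p21-2 and 11.35 in p21-3 with ECV and 13.17 and 13.37 with KLF4 virus and rose 3.99-fold (adjusted p = 6.96e-06). SLC2A5 read 11.19 and 10.97 with ECV and 9.66 and 9.71 with KLF4 virus, ALDOC read 9.93 and 9.27 with ECV and 8.36 and 8.25 with KLF4 virus, and BNIP3 read 10.56 and 10.35 with ECV and 9.19 and 9.22 with KLF4 virus. In all 3 the KLF4 arrays lay below both ECV arrays. In the glycolysis and hypoxia list, 6 of 23 tested fell and 2 rose (26.1% and 8.7%, against 10.8% and 9.42% of all genes). The falls numbered 5 to 6 and the rises 1 to 2 in fits without 1 p21 array. Beside SLC2A5, ALDOC and BNIP3, the falls were those of PFKFB4, TPI1 and PFKP. The fall of PFKP passed in none of the 4 fits without 1 p21 array (adjusted p from 0.0587 to 0.154) nor with normexp (0.0782).

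Inflammatory genes were followed through NF-kB and interferon targets. Of 26 tested NF-kB targets and cytokines 4 rose and 1 fell (15.4% and 3.85%, against 9.42% and 10.8% of all genes). In fits without 1 p21 array 2 to 4 rose and 0 to 1 fell. IER3, an early response gene, read 8.49 and 8.47 with ECV and 10.16 and 10.49 with KLF4 virus and rose by 1.85 (SE 0.249). IL1B read 8.49 and 8.66 with ECV and 9.38 and 9.73 with KLF4 virus and rose by 0.98, which did not pass the test without p21-2 with ECV (adjusted p = 0.0701) or p21-3 with KLF4 (0.0964). Of 37 tested interferon response genes 8 rose (21.6%) and 1 fell (2.7%), and the median was 0.32. IFIT1 and IFI27 were higher by 1.12 and 0.25 but did not pass the test. Both passed with the p21 arrays alone (limma, adjusted p = 1.15e-10 and 0.0463), and IFIT1 also with array weights (0.00394). The antiviral enzyme OAS1 read 8.48 and 8.57 with ECV and 10.20 and 10.28 with KLF4 virus and rose by 1.71 (SE 0.169), and TAP1 and IRF1 rose by 0.87 and 0.76. The rises numbered 3 to 5 in fits without 1 p21 array. These 2 lists had more called genes in the non-targeting lines, with 15 and 25 rises, and 7 and 13 in the miR-150 lines, although a direct test of the difference called 0 genes. The share of all genes that rose was 9.42% in p21 lines, 8.71% in miR-150 lines and 12.8% in non-targeting lines. Of 8 tested NADPH oxidase genes 1 rose (12.5%, against 9.42% of all genes) and 0 fell, and 0 rose in fits without 1 p21 array. Of 14 tested BCL2 family genes 2 rose and 1 fell (14.3% and 7.14%, against 9.42% and 10.8% of all genes). In fits without 1 p21 array 1 to 2 rose and 0 to 1 fell. BCL2A1, a survival protein of myeloid cells, rose by 0.70.

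**Figure D4:**
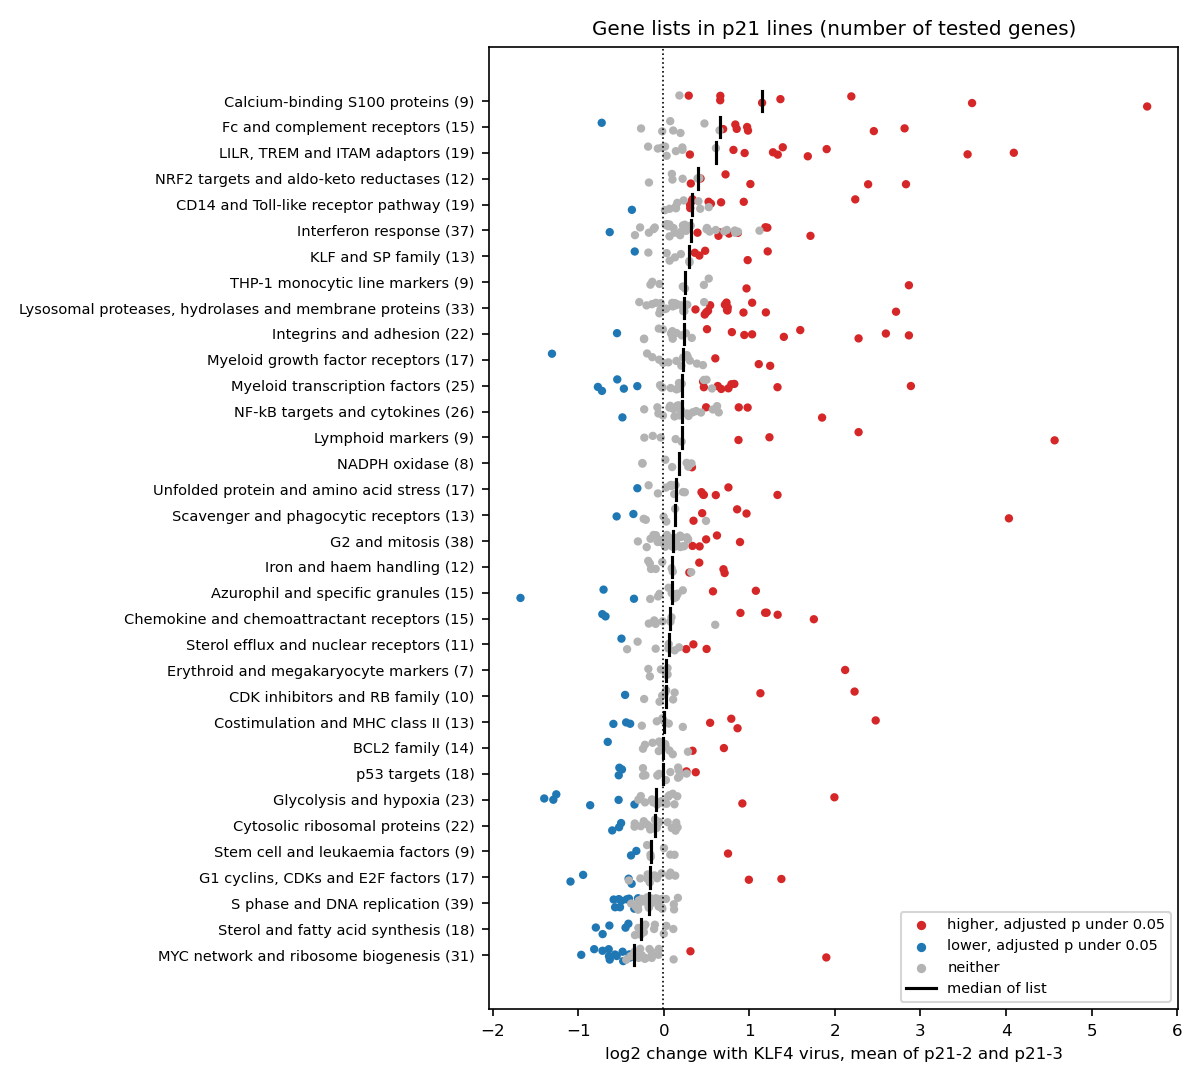
Log2 change with KLF4 virus (horizontal, mean of p21-2 and p21-3) of every tested gene of the lists with at least 5 tested genes, red where higher and blue where lower at an adjusted p under 0.05, grey otherwise. Black bars are list medians, from -0.34 for the MYC network to 1.15 for the S100 proteins, and the dotted line is the median of all genes, -0.01.

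Differences between the 2 lines in their response have no test, because each line gave 1 change. The difference between the changes of p21-2 and p21-3 was at least 0.5 in 148 of 11313 genes and at least 1 in 2. Those 2 were PPBP, a platelet and monocyte chemokine precursor, which rose by 1.35 in p21-2 and 2.89 in p21-3, and S100A12, with 1.67 and 2.72. PPBP read 7.83 and 7.86 with ECV and 9.18 and 10.75 with KLF4 virus, so the lines were alike with ECV and apart with KLF4 virus. Its call (adjusted p = 0.0314) ended without either p21 ECV array (0.126 and 0.135), without p21-3 with KLF4 (0.31), without 1 non-targeting or 1 miR-150 ECV array (0.0502 and 0.0504), with normexp (0.0573) and with no filter on dim probes (0.0508). CD163 rose by 3.59 and 4.48. SPP1, the gene of osteopontin, went from 9.53 to 8.56 in p21-2 and read 9.08 and 9.08 in p21-3. CMKLR2, a chemerin receptor, read 8.82 and 9.28 with ECV and 9.86 and 9.38 with KLF4 virus, for p21-2 and p21-3 in turn. Neither SPP1 nor CMKLR2 passed the test of the mean change (adjusted p = 0.506 and 0.177), although both did with the p21 arrays alone (0.00492 and 0.00105) and without either non-targeting KLF4 array (0.0154 and 0.0261).

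The comparison with the other constructs asks whether cells targeted for p21 answer KLF4 differently. Within the non-targeting lines 1449 genes rose, 12.8% of those tested, and 1815 fell, 16%. Within the miR-150 lines 985 rose, 8.71%, and 1007 fell, 8.9%. Of the genes that rose in p21 lines, 865 also rose in non-targeting lines, which is 81.1% of the p21 list and 59.7% of the non-targeting list. With miR-150 lines 788 were shared, 73.9% of the p21 list and 80% of the miR-150 list. Of the falls, 941 were shared with non-targeting lines (77.3% and 51.8% of the lists) and 766 with miR-150 lines (62.9% and 76.1%). In p21 lines 149 rises and 203 falls were called that neither other target had in that direction, 14% and 16.7% of the p21 calls, but a call in 1 target and not in another is no test of a difference.

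Tested directly, the KLF4 effect in p21 lines differed from that in non-targeting lines in 0 of 11313 genes (0%; 660 at an unadjusted p under 0.05; limma), from that in miR-150 lines in 0 genes (0%; 273), and from the mean of both in 0 genes (0%; 419). A gene of median SE had a 95% interval of 0.31 on either side of its difference in the first and second test and 0.27 in the third, before adjustment for the number of genes. The smallest p-value against non-targeting lines belonged to TXNDC5, a disulfide isomerase of the endoplasmic reticulum, which changed by 0.26 and -0.04 in the p21 lines, -0.56 and -0.56 in the non-targeting lines and -0.16 and -0.28 in the miR-150 lines (difference from non-targeting 0.67, SE 0.141, adjusted p = 0.828). BTK, a kinase of B cells and myeloid cells, changed by -0.27 and -0.43 in the p21 lines and -0.84 and -0.99 in the non-targeting lines, a difference of 0.56 (SE 0.124, adjusted p = 0.828). In the other direction TATDN1 had a difference of -0.62 (SE 0.152, adjusted p = 0.828).

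Against the mean of both other targets the smallest p-values belonged to TMEM267, with a difference of -0.70 (SE 0.154), and to BNIP3, with -0.55 (SE 0.122; adjusted p = 0.999 for both). BNIP3 changed by -1.38 and -1.14 in the p21 lines, -0.81 and -0.84 in the non-targeting lines and -0.53 and -0.63 in the miR-150 lines. The p21 values lay below the other 4, which picking genes by the p-value of this difference favours. For CDKN1A the difference from non-targeting lines was -0.65 (SE 0.286, adjusted p = 0.828), with changes of 3.25 and 2.51 in NT-2 and NT-3. Among the leading rises, S100A8 rose by 5.65 against 5.28 and 4.96 in non-targeting and miR-150 lines, and TREM1 by 3.55 against 4.20 and 3.78.

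The first and the third count depended on the non-targeting arrays with KLF4 virus, whose 2 lines lay apart (pooled SD of a gene 0.198, against 0.0992 in the p21 group with KLF4 virus). Without the NT-3 array with KLF4, which leaves NT-2 alone in its group and assumes that it varies like the other groups, 586 genes differed from non-targeting lines (203 higher and 383 lower in p21 lines) and 100 from the mean of both. CCL8, IFI27 and IFIT1 then had the smallest p-values, with differences of -2.92, -2.05 and -2.57. Without it the differences named above were 0.69 for TXNDC5, 0.53 for BTK, -0.59 for TATDN1, -1.06 for CDKN1A, -0.75 for TMEM267 and -0.55 for BNIP3. Apart from CDKN1A, these genes had been picked for small p-values of the same differences, so they are no separate evidence. Without the NT-2 array with KLF4, 2 genes differed from non-targeting lines, the small RNA genes SNAR-A1 (2.00) and RNY1 (1.02), and SNAR-A1 differed from the mean of both (0.85). The genes CCL8, IFI27, IFIT1, SNAR-A1 and RNY1 were picked with their values known. Against miR-150 lines the count was 0 in all 12 fits without 1 array, and the other counts were 0 in the remaining 10.

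**Figure D5:**
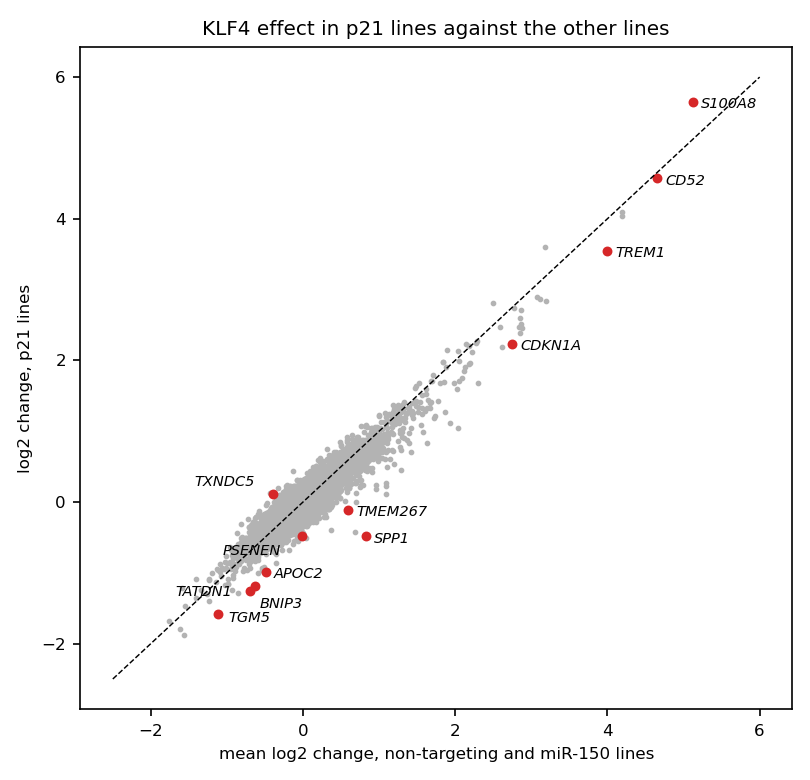
Log2 change with KLF4 virus in p21 lines (vertical) against the mean change in non-targeting and miR-150 lines (horizontal), 1 point per gene for 11313 genes, with named genes in red and a dashed line of equal change. Most genes lie along the line; BNIP3 and TMEM267 lie below it, by 0.55 and 0.70.

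A last description concerns position and promoters. CDKN1A lies on the short arm of chromosome 6. The 261 tested genes between it and the end of that arm had a median change of -0.02 in the p21 lines, with 34 higher and 36 lower. Over all 11313 genes the median was -0.01, with 1066 higher (9.42%) and 1217 lower (10.8%). Promoter windows of 300 bases were found by gene identifier for 9101 of the 11313 genes, 13126 windows in all since a gene can have several starts. The letters CACCC, read on either strand, were in 63.5% of all windows, 67.4% of those of genes that rose, 62.5% of those of genes that fell and 70.9% of those of genes that rose at least 2-fold. The longer CCCCACCC, which contains it, was in 12.6%, 16.4%, 11.9% and 18.0% of these windows, and CCACACCC, which also contains it, in 3.15%, 4.8%, 2.74% and 5.23%. GGGCGG was in 64.0% of all windows and 52.3% of those of genes that rose at least 2-fold, and TATAAA in 6.67% and 16.3%. In the 29 windows of genes that fell at least 2-fold, the shares were 62.1% for CACCC, 65.5% for GGGCGG and 13.8% for TATAAA. Windows of genes that rose at least 2-fold had a median GC content of 59.7%, against 64.3% over all windows, and base composition sets part of how often such letters occur. A match describes the letters of the window only.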

How the data were processed

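The values are log2 normalized expression levels of 47323 Illumina probes as deposited by the authors; the sources used here do not state how they were normalized. The 24 columns of a further deposited table matched no sample label and were not used. Precision is limited by the number of arrays, 2 in each of 6 groups.

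A background level of 7.291 was set as the commonest level (7.088) plus the 95th percentile of the distances of lower values from it. Probes above it on at least 2 arrays were kept (20177), and 15068 of them had 1 gene symbol in the platform annotation. A gene is represented by its brightest kept probe, which left 11313 genes. limma 3.58.1 (R 4.3.3) was fitted with 1 mean per group over all 12 arrays (6 residual degrees of freedom), and p-values were adjusted by Benjamini-Hochberg over all genes with a threshold of 0.05. An exact permutation of 2 against 2 arrays cannot go below p = 0.333. Fold changes of genes dim in both ECV arrays are bounds against the background level. Named genes are the 20 largest changes in each direction among called genes with the same direction in both p21 lines. They also include the genes with the smallest p-values for each difference and the 5 that differed most between the p21 lines in each direction. Per gene list, the rule adds the 5 members with the smallest p-values, plus any cyclin-dependent kinase inhibitor, G1 or KLF gene. LILRA5, TYROBP, S100A6, ITGAX, PECAM1, ITGA4, FBL, ODC1, ID2, ATP6V0D1, TPI1 and PFKP lie outside that rule and were named after their values were seen. The members and lists were chosen with earlier results of these data known. Promoter windows came from RefSeq GRCh38.p14 by gene identifier. Figures were drawn with Python 3.11.15 and matplotlib 3.10.9, and the fitting code was tested on simulated data.

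The labels pair the arrays of a line across viruses. As a check, the deviations of the ECV and KLF4 arrays of 1 line from their group means were correlated over genes: r was 0.0713 for p21, 0.0988 for non-targeting and -0.0502 for miR-150. Alternatives were the line as a block, the p21 arrays alone, normexp background correction, cyclic loess, no filter and a stricter filter on dim probes, the mean over probes, a variance trend, array weights, and leaving out each array in turn.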

Additional observations from a re-analysis of the deposited data

How the results depend on the processing

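The counts of 1066 higher and 1217 lower genes in p21 lines stayed within 1.5 times under each alternative other than those that follow. Requiring at least 2-fold left 143 and 27. Over the 12 fits without 1 array the counts ran from 595 to 1467 higher and from 500 to 1682 lower, and the lowest came from leaving out a p21 array, which leaves its partner alone in its group. With the line as replicate block, the pairing the labels give, 1093 genes were higher and 1225 lower, and each of the 3 tests of a difference between targets called 0 genes. Those differences stayed at 0 in each fit except without NT-2 with KLF4 or NT-3 with KLF4: over the fits without 1 array the count ran from 0 to 586 against non-targeting lines and from 0 to 100 against the mean of both others, with 2 and 1 without NT-2 with KLF4. The cause was not tested. Against miR-150 lines the count was 0 in all of them. Of the 120 called genes that are named here, 0 changed direction under the 21 alternatives; other called genes were not followed singly. Signal over background limits the genes near 7.291, whose changes are understated. Of the 18 named genes that were not called, 10 passed with the p21 arrays alone, 9 without either non-targeting KLF4 array, 4 with array weights and 2, CDK4 and SPI1, with the line block. KLF4 changed by -0.0663 with the mean over its probes, and without 1 p21 array TMEM267 ran from -0.259 to 0.0275 and TXNDC5 from -0.0372 to 0.254.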
